A study of Mus musculus with 8 samples.

Results

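The genes described here encode the proteins of the mitochondrial ribosome in RNA from mouse intestinal crypts. They were chosen by name and biotype alone: every protein-coding gene whose symbol starts with Mrpl or Mrps followed by a digit, which gave 78 of the 55114 genes in the table, 49 named Mrpl and 29 named Mrps. By the known role of the protein, 51 belong to the large subunit and 26 to the small subunit, and the remaining gene, Mrps36, encodes a subunit of the 2-oxoglutarate dehydrogenase complex of the citric acid cycle in spite of its name. Mrps30 and Mrps18a carry small-subunit names, but their proteins sit in the large subunit and were counted there.

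The samples were crypts of 4 Mex3a-/- mice (KO) and 4 littermate controls (Ctrl), all C57BL/6 and 8 weeks old, with 1 library per mouse. The deletion is constitutive, removes exon 1 and part of exon 2, and is therefore present in every cell of the animal. Crypts were released from the intestine with EDTA and sequenced in bulk, so the values average over stem, Paneth, dividing and early differentiated cells, and fewer cells of a type and less RNA per cell cannot be told apart. The comparison asks which transcripts differ in crypts that lack Mex3a, an RNA-binding protein of crypt stem cells.

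The mitochondrial ribosome translates the few proteins that mitochondrial DNA encodes, which are core subunits of the respiratory chain and of ATP synthase. Its rRNAs are made inside the organelle, whereas all of its proteins are encoded in the nucleus, made by cytosolic ribosomes and imported. Some of them descend from bacterial ribosomal proteins and others were added to the mitochondrial ribosome later. Crypt stem cells and dividing progenitors are known to depend on mitochondrial respiration.

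Mex3a had 236 to 328 counts in the control libraries and 6 to 28 in the KO libraries (13.3 ± 2.10 against 0.613 ± 0.417 CPM, SD, n = 4 each), and its log2 fold change was -4.43 (SE 0.43, edgeR's quasi-likelihood test, adjusted p = 0.031). Counts per library summed to 20324184 to 24726221 in controls and 23489180 to 30654105 in KO mice. Of 16109 genes tested, 0.00621% passed an adjusted p of 0.05, which is Mex3a alone. Each of the 6 epithelial marker genes examined had at least 10 counts in every mouse. In both genotypes, replicates 1 and 2 carried Y-chromosome transcripts and replicates 3 and 4 carried Xist. No marker gene of any cell type passed after adjustment. At an unadjusted p under 0.05, where 3.05% of all genes tested were lower and 5.33% higher in KO mice, 5 of 8 stem cell genes were lower, and 2 of 6 crypt epithelium genes (summed level 6768 to 7234 CPM in controls and 7564 to 8931 CPM in KO mice, without overlap), 3 of 12 enterocyte genes (2272 to 5544 and 3563 to 12583 CPM, overlapping) and 2 of 10 immune genes (43.9 to 54.1 and 54.0 to 81.4 CPM, overlapping) were higher. The stem cell count was 3 without control replicate 1, control replicate 4, KO replicate 2, KO replicate 3 or KO replicate 4. The share of all genes lower in these fits was 2.67%, 2.61%, 2.21%, 2.17% and 2.47%. The crypt epithelium count was 1 without control replicate 1, control replicate 2, KO replicate 3 or KO replicate 4. The share of all genes higher in these fits was 4.06%, 4.38%, 2.99% and 3.69%. The enterocyte and immune counts were 0 and 0 without KO replicate 3, 7 and 4 without KO replicate 1 and 6 and 6 without KO replicate 2. A block for replicate number gave 6 and 5. The share of all genes higher in these 4 fits was 2.99%, 7.94%, 5.52% and 7.14%. Of 7 goblet genes 2 were higher and 1 lower (4 and 0 with the block). Of 8 enteroendocrine genes 1 was higher (0 with the block), and the 1 tested blood gene was lower. Neither was called without control replicate 1, KO replicate 3 or KO replicate 4. Of 6 tested genes of stroma, endothelium and muscle 0 were called (1 higher with the block or without KO replicate 1). All 7 Paneth and all 5 tested tuft genes had a log2 fold change below 0 (medians -0.70 and -0.53), with 0 called in either list (2 lower in each with the replicate block, where 4.13% of all genes were lower). Tuft genes lower were 3 without control replicate 1, 2 without control replicate 3 and 2 without KO replicate 4 (2.67%, 2.37% and 2.47% of all genes). Without control replicate 2, KO replicate 1 or KO replicate 4, 1 Paneth gene was lower (3.37%, 5.04% and 2.47% of all genes). For the genes of cell division the count was 0 of 12 in either direction, with a median of -0.023. Their part in the values below was not tested.

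The mitoribosomal genes were mostly above the typical level of RNA in these crypts, with a wide range between genes. Of the 78 genes, 76 passed the low-count filter and were tested. On the FPKM scale, which divides by gene length and so allows genes to be compared, their mean over the 8 mice had a median of 21.98 and quartiles of 11.5 and 34.8, against a median of 4.58 for all genes tested and 324 for the cytosolic ribosomal proteins. All but 2 of the 76 genes lay above the median of all genes tested. The median was 23.4 FPKM for large-subunit genes and 14.5 FPKM for small-subunit genes, values that also depend on the gene lengths used.

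Mrpl34, a small basic protein of the large subunit with a bacterial counterpart, stood highest at 107 ± 20.2 FPKM in controls and 110 ± 17.5 FPKM in KO mice (SD, n = 4 each). Its lowest mouse had 88.6 FPKM and its highest 135 FPKM. The next genes were Mrpl52 at 73.9 ± 7.07 and 67.7 ± 9.51 FPKM, Mrpl12 at 70.2 ± 7.63 and 70.2 ± 9.91 FPKM, Mrps21 at 62.5 ± 7.86 and 64.7 ± 14.4 FPKM and Mrpl2 at 62.6 ± 1.0 and 63.7 ± 6.21 FPKM. Mrpl12 forms the flexible stalk that recruits translation factors, and Mrpl2 lines the peptidyl transferase region. Mrpl52, Mrpl12, Mrps21 and Mrpl2 overlapped one another in their mouse-by-mouse ranges (60.4 to 82.4, 61.7 to 84.7, 48.2 to 77.9 and 58.7 to 71.8 FPKM), so their order is not fixed by these data, whereas all 8 values of Mrpl34 lay above theirs.

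At the other end of the tested genes stood Mrps30 (5.03 ± 0.670 and 5.02 ± 0.760 FPKM), Mrpl33 (3.26 ± 0.386 and 3.26 ± 0.393 FPKM) and Mrps23 (2.58 ± 1.79 and 1.86 ± 0.689 FPKM). Low FPKM in this group did not always mean few reads: Mrpl33 and Mrps30 had 24.1 ± 2.88 and 33.8 ± 4.52 CPM in controls, and their gene length, summed over every annotated exon, pulled their FPKM down. Mrps23 was low on both scales.

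**Figure D1:**
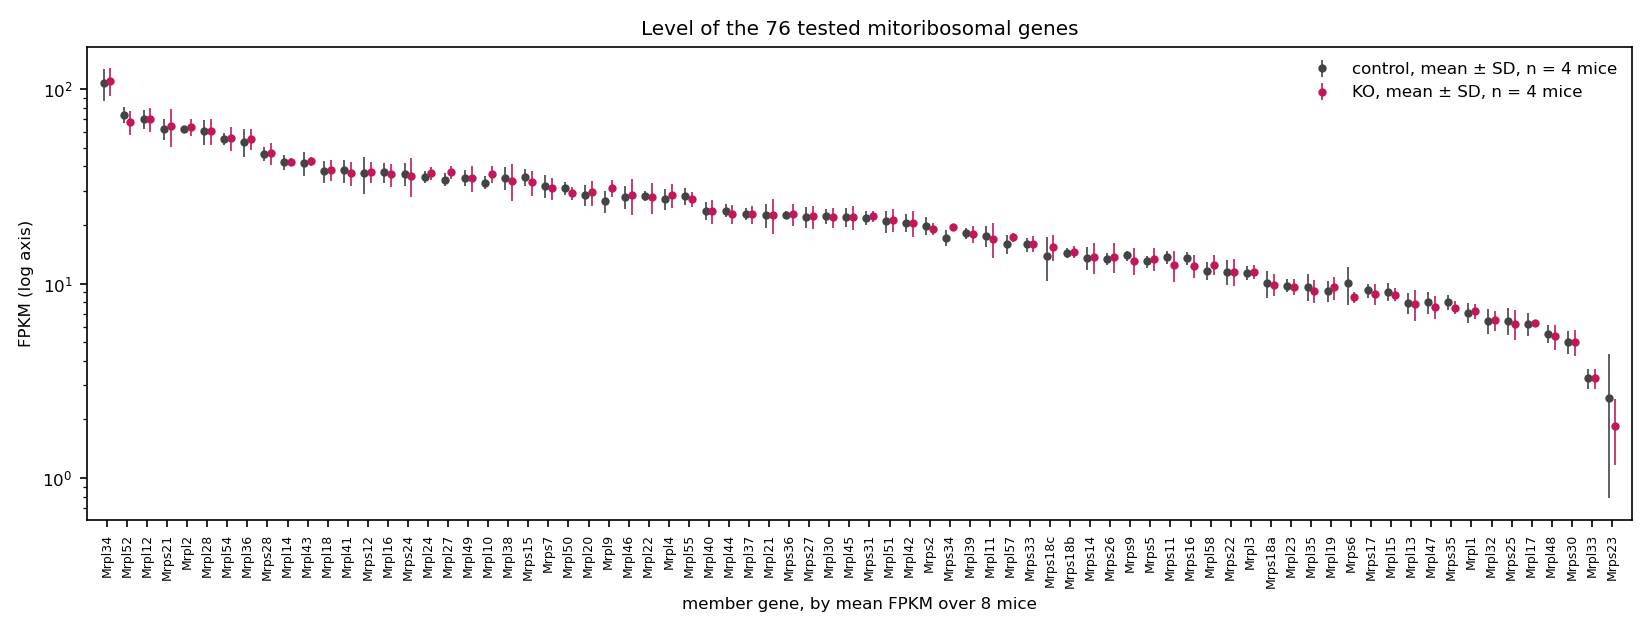
Mean FPKM with SD (log axis, n = 4 mice per genotype) of the 76 tested mitoribosomal genes, ordered by their mean over 8 mice, with controls in grey and KO mice in red. The 2 genotypes sit side by side from Mrpl34 at the top to Mrpl33, and Mrps23, the lowest, has error bars far wider than those of its neighbours.

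Loss of Mex3a was not accompanied by a detectable change in this gene set. In edgeR's quasi-likelihood test, 0 of the 76 genes were lower and 0 were higher in KO mice at an unadjusted p under 0.05, where 3.05% and 5.33% of all genes tested were, and 0 passed after adjustment over all genes (lowest adjusted p = 0.604, Mrps34). DESeq2 also placed 0 of them under an unadjusted p of 0.05 (2.99% of all genes were lower and 6.1% higher). In 0 of the 76 genes did the 4 KO mice lie entirely above or below the 4 control mice, which was the case for 4.05% of all genes tested. The genes shifted together between mice, as described below, so these counts are not 76 independent results. The fold changes were small: the median log2 fold change was -0.008, against -0.016 over all genes tested, 44 genes were below 0 and 32 above, and the middle 50% lay between -0.055 and 0.018. A log2 fold change beyond 0.2 in size was found for 3 of the 76 genes (3.95%), compared with 35.1% of all genes tested. The median standard error was 0.115 for these genes and 0.156 for all genes tested, so the 2 shares differ in precision and are not comparable.

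The width of the intervals sets what these data could have shown. The median standard error was 0.115 on the log2 scale, and the 95% interval of the fold change lay within 1.5-fold in either direction for 74 of the 76 genes, Mrps23 and Mrps6 being the exceptions, and within 1.25-fold for 48. Differences smaller than these intervals were not detectable with 4 mice per genotype. The median over the set adds little precision, because the genes moved together. Within genotype, the SD of the mouse medians was 0.150, against a median of 0.177 for single genes.

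**Figure D2:**
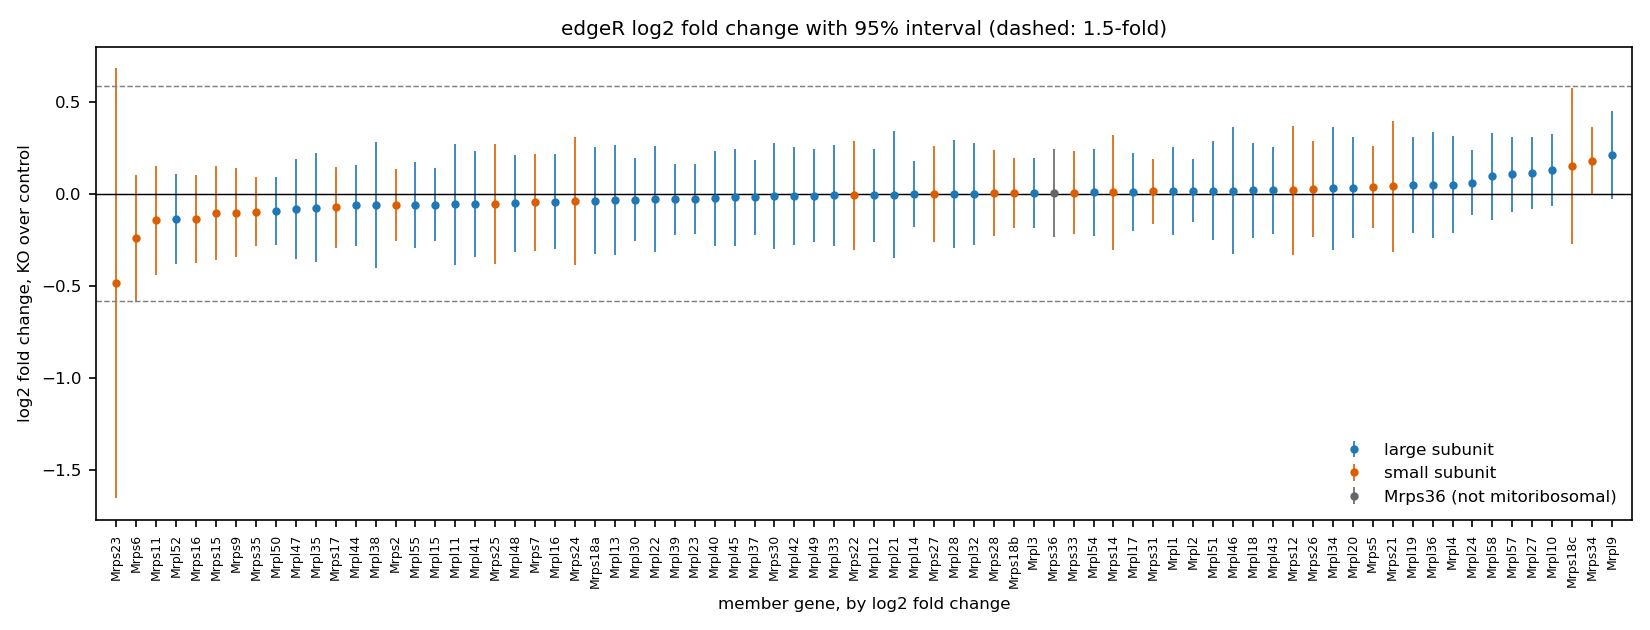
Log2 fold change of KO over control (edgeR) with its 95% interval for the 76 tested genes, ordered by fold change and coloured by subunit, with dashed lines at 1.5-fold. Every interval includes 0, and that of Mrps23 is the widest, from -1.65 to 0.68.

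The absence of a call extended over the roles of the proteins. The median log2 fold change was -0.008 for the 50 tested large-subunit genes and -0.009 for the 25 tested small-subunit genes. It was -0.002 for the 46 genes with a bacterial counterpart and -0.011 for the 29 that are specific to mitochondria. None of the 4 tested stalk genes, the 7 genes around the exit tunnel or the 7 genes of the central protuberance had an unadjusted p under 0.05.

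Among genes with well-known roles, Mrps12, the decoding-centre protein that monitors codon recognition, had 29.5, 48.8, 41.1 and 34.9 CPM in controls and 41.8, 44.7, 35.9 and 34.1 CPM in KO mice. Mrpl12 had 95.9, 117, 119 and 102 CPM in controls and 130, 103, 103 and 95.6 CPM in KO mice. In both genes the groups overlapped throughout, and the log2 fold changes were 0.020 (SE 0.16) and -0.007 (SE 0.11). Mrpl45, which holds the exit of the ribosome against the inner membrane, had a log2 fold change of -0.020 (95% interval -0.28 to 0.24). Mrpl44, a mitochondrion-specific protein of the same region, had -0.063 (95% interval -0.28 to 0.16). Mrps36, the dehydrogenase subunit, was as flat as the ribosomal members, with 28.8 ± 1.19 CPM in controls and 28.9 ± 3.76 CPM in KO mice (SD, n = 4 each).

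The gene with the largest positive value was Mrpl9, a large-subunit protein with a bacterial counterpart. It had 68.9, 84.8, 71.2 and 63.8 CPM in controls and 90.6, 91.0, 77.6 and 75.1 CPM in KO mice. Control replicate 2 reached into the KO range, and without it the groups were apart. The log2 fold change was 0.21 (SE 0.11, 95% interval -0.026 to 0.45, unadjusted p = 0.075 and adjusted p = 0.623, edgeR's quasi-likelihood test). With the replicate number as a block its unadjusted p was 0.025 (adjusted p = 0.374), and without control replicate 2 or without KO replicate 4 it was 0.012 and 0.047, with adjusted values of 0.601 and 0.788.

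Mrps34, a mitochondrion-specific protein needed for a stable small subunit, came nearest to the threshold. It had 35.2, 39.4, 31.5 and 37.2 CPM in controls and 41.3, 40.2, 41.4 and 39.2 CPM in KO mice. Only control replicate 2, at 39.4, exceeded a KO mouse. The log2 fold change was 0.18 (95% interval -0.0057 to 0.36, unadjusted p = 0.056 and adjusted p = 0.604, edgeR's quasi-likelihood test), and without control replicate 2 the unadjusted p was 0.025. In the annotation 63.4% of its exon bases lie opposite exons of Mapk8ip3, which had 12654 counts in all, and 37.0% are shared on the same strand with Nme3, which is listed at 0. Whether reads were shared between these genes was not tested. The other large positive values were those of Mrps18c (0.15), Mrpl10 (0.13), a stalk protein, and Mrpl27 (0.11), which reaches towards the peptidyl transferase centre. Leaving out 1 mouse gave 0.055 to 0.33 for Mrps18c, 0.067 to 0.17 for Mrpl10 and 0.066 to 0.16 for Mrpl27.

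Of the 5 lowest fold changes, 4 belonged to the small subunit. Mrps6, a protein of the small subunit's platform, had 14.1, 20.6, 13.6 and 13.5 CPM in controls and 14.2, 13.2, 12.3 and 12.6 CPM in KO mice. Control replicate 2 alone stood far above the other 7 mice. The log2 fold change was -0.24 (95% interval -0.59 to 0.10) with all mice and -0.075 without control replicate 2. Mrps11, Mrpl52 and Mrps16 had -0.14 each, with overlapping groups. Leaving out 1 mouse gave -0.26 to -0.053 for Mrps11, -0.23 to -0.081 for Mrpl52 and -0.20 to -0.071 for Mrps16. Without KO replicate 1, Mrpl52 and Mrps11 had unadjusted p-values of 0.041 and 0.048 (adjusted 0.362 and 0.379), and so did Mrps9, named here for that reason after its values were seen, at 0.022 (adjusted p = 0.306, the lowest of any gene of the set under any alternative).

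Mrps23, the gene with the most negative value, was also the least precise. Its counts were 90, 23, 65 and 187 in controls and 96, 86, 64 and 45 in KO mice, while every other tested gene of the set had at least 240 counts in each mouse. The control mice alone spanned the whole range of the KO mice. The log2 fold change was -0.49 with all mice, 0.050 without control replicate 4 and -0.80 without control replicate 2, so that a single control mouse set its sign. The neighbouring gene on the same strand, Cuedc1, varied from 2 to 142 counts between mice.

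The 3 Mrps18 paralogs, which descend from the same bacterial protein and occupy different places in the ribosome, were also compared. The large-subunit paralog Mrps18a had 37.4 ± 5.82 CPM in controls and 36.5 ± 4.65 in KO mice. Mrps18b had 30.3 ± 1.81 and 30.4 ± 2.11 CPM. Mrps18c had 15.0 ± 3.83 and 16.6 ± 2.58 CPM (SD, n = 4 each). Their log2 fold changes of -0.037, 0.004 and 0.15 each had intervals that included 0.

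Mrpl53 and Mrps10 were listed at 0 in all 8 mice and could not be tested. A count of 0 allows up to 3 counts, or 0.0979 to 0.148 CPM depending on the library, which covers counting error only. For Mrpl53, a stalk protein at chr6:83109040-83109939 (GRCm38, plus strand), 695 of its 790 exon bases (87.97%) are shared on the same strand with Gm42688, a gene that runs through it and had 448 counts. Mrps10, at chr17:47368887-47381417 (GRCm38, plus strand), was 1 of 6 consecutive genes at 0, Trerf1 and Guca1b among them, and the table also holds an unnamed gene with an identifier of the authors' own at 47368690 to 47378741 of a patch sequence of the genome, which had 556 counts (14 to 204 per mouse). Whether reads of these 2 genes were counted elsewhere was not tested, and their listing at 0 is no measure of their expression.

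Shared sequence touched other genes of the set as well. In the GENCODE annotation, 33 of the 78 genes share exon bases with another gene, 8 on the same strand and 28 on the opposite strand, and the sources used here do not say whether counting used strand. The 12 annotated pseudogenes of these genes drew little: 7 had counts, 1306 in all, or 0.175% of the 747719 counts of the members.

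Although genotype did not separate them, the genes of the set shifted together between mice. The shifts were small: the median spread within genotype (SD of log2 CPM) was 0.177 for these genes, below the 0.219 of all genes tested and above the 0.137 of the cytosolic ribosomal proteins. For each gene, log2 CPM was set against its own mean over the 8 mice. In KO replicate 1 all 76 genes lay above their mean, and in control replicate 2 it was 73 of 76. In KO replicate 4 only 2 genes lay above, in KO replicate 3 it was 8, in control replicate 4 it was 9 and in control replicate 1 it was 12. Control replicate 3 and KO replicate 2 were in between, with 45 and 57.

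The median deviation was -0.093, 0.18, 0.036 and -0.087 in control replicates 1 to 4 and 0.19, 0.084, -0.12 and -0.16 in KO replicates 1 to 4. High and low mice were thus found in both genotypes. Summed over all tested members, the level was 3957 ± 356 CPM in controls and 3935 ± 459 CPM in KO mice (SD, n = 4 each), with ranges of 3674 to 4442 and 3508 to 4491 CPM. Both subunits shared the pattern, with medians of 0.20 and 0.17 in KO replicate 1 and of -0.16 and -0.15 in KO replicate 4 for large and small.

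**Figure D3:**
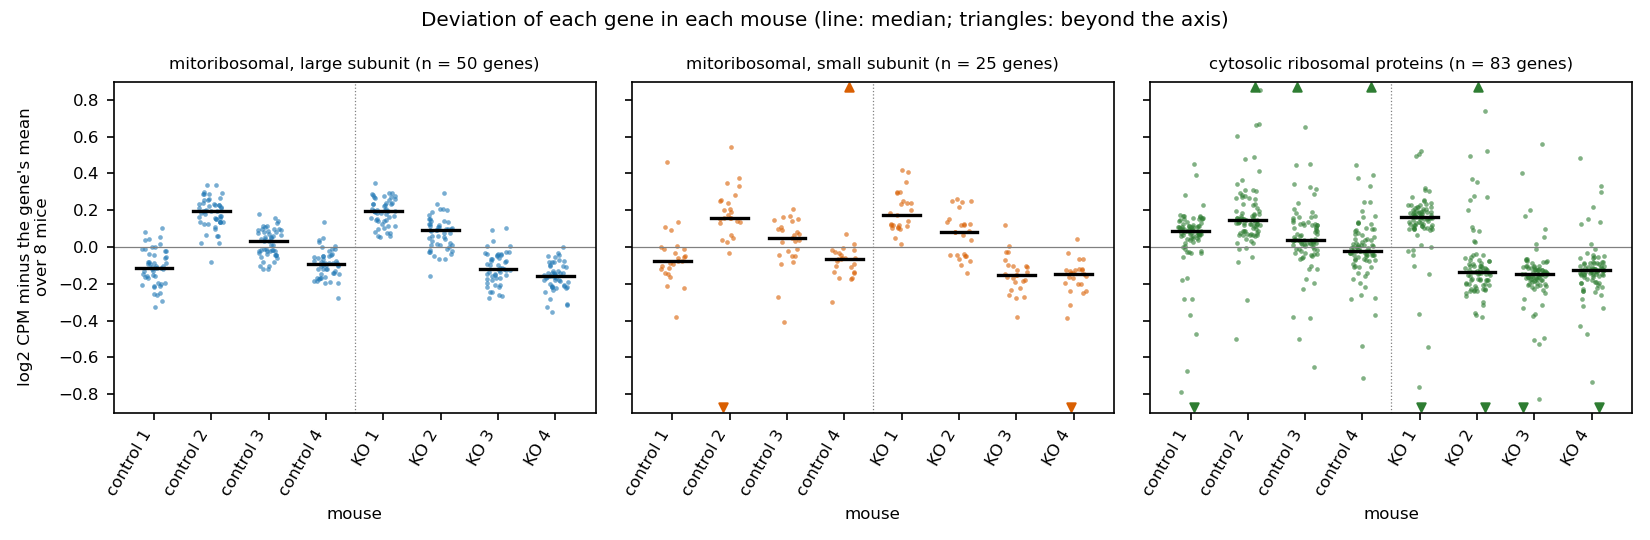
Log2 CPM of each gene minus its mean over the 8 mice, for large-subunit, small-subunit and cytosolic ribosomal protein genes (1 point per gene, line at the median, triangles beyond the axis), with a dotted line between controls and KO mice. Both mitoribosomal panels are high in control replicate 2 and KO replicate 1 and low in KO replicates 3 and 4, whereas the cytosolic panel is low in 3 of the 4 KO mice.

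Other lists moved between the same mice. The median deviation of the cell division genes was -0.12, 0.10, 0.16 and -0.12 in controls and 0.14, 0.17, -0.25 and -0.086 in KO mice, with the same sign as the mitoribosomal genes in all 8. The mitochondrial aminoacyl-tRNA synthetases also had the same sign in all 8. They stood at -0.011, 0.10, 0.072 and -0.065 in controls and 0.12, 0.019, -0.096 and -0.14 in KO mice. The assembly factors of the mitochondrial ribosome had the same sign in every mouse but KO replicate 2. The enterocyte genes stood at -0.31, -1.06, -0.44 and 0.48 in controls and -0.37, -0.12, 1.41 and 0.86 in KO mice. The lowest mitoribosomal values, in KO replicates 3 and 4, thus fell in the mice with the highest enterocyte values, and the part of cell composition in the shared movement was not tested.

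The KO mice with low values were those with Xist. In a split chosen after the data were seen, the median log2 fold change of the 76 genes was 0.084 within the 4 mice with Y transcripts, where 64 genes were above 0, and -0.12 within the 4 mice with Xist, where 67 were below 0. Over all 16109 genes tested, 7595 were above 0 in the first group and 8246 below 0 in the second. With 2 mice per genotype in each group, none of the mitoribosomal genes (0 of 76) was called at an unadjusted p under 0.05 among the mice with Y transcripts (2.83% of all genes were lower and 3.6% higher), and 2 were lower among the mice with Xist (2.81% of all genes were lower and 6.21% higher). These were Mrps16 and Mrpl22, at -0.34 and -0.30.

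The interaction of genotype with group was above 0 in 71 of the 76 genes, with a median of 0.20, compared with 7570 of the 16109 genes tested (median -0.023) and 61 of the 83 cytosolic ribosomal protein genes (median 0.056). For 5 members the unadjusted p of this term was under 0.05 (3.82% of all genes tested): Mrps21, Mrpl54, Mrpl22, Mrpl39 and Mrps16. None of the 16109 genes passed after adjustment by edgeR's quasi-likelihood test, and the lowest adjusted p of the 76 genes was 0.974. Since the split was made after the low KO mice had been seen, these values restate the mouse medians above and are no independent test of the group. The shared direction of the genes rests on the same 8 mice and counts as a single observation on each mouse, with 2 mice for each genotype in each group.

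**Figure D4:**
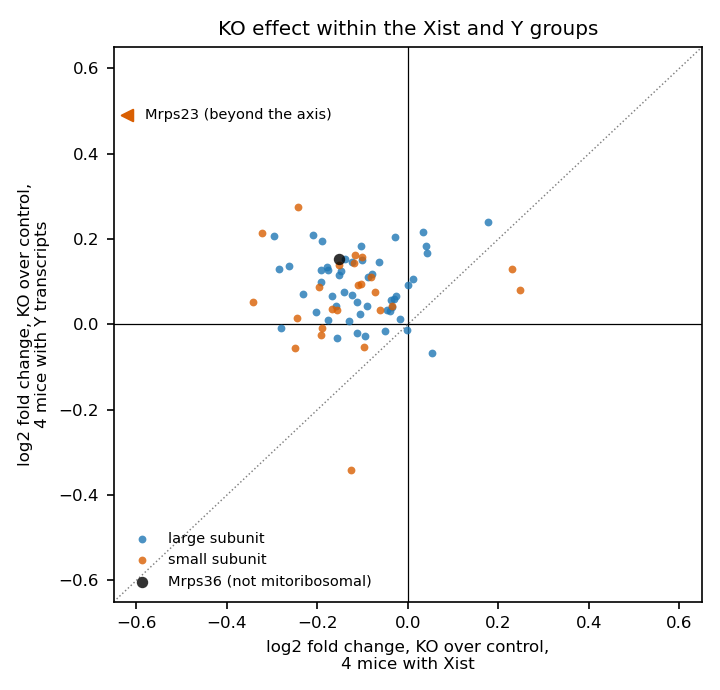
Log2 fold change of KO over control for each of the 76 tested genes within the 4 mice with Xist (horizontal axis) and within the 4 mice with Y transcripts (vertical axis), with the dotted line marking equal values. Most genes lie in the upper left part, 64 above 0 on the vertical axis and 67 below 0 on the horizontal one, and Mrps23 lies beyond the axis.

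Promoters were examined because the genes moved together between mice. Nuclear genes for mitochondrial proteins are known targets of NRF1, a factor that binds a GC-rich palindrome, and of GABPA, an ETS factor that binds a GGAA core. The RefSeq promoter table (GRCm38.p6, 250 bases before to 50 bases after each start) held 69 of the 78 genes. The NRF1 letters, GCGCA followed by any base and GCGC, were found on either strand in 13 of the 69 (18.8%), in 10.2% of the promoters of protein-coding genes tested and in 6.90% of all protein-coding promoters. The following stretches from genes named above show the match in capitals, written along the strand of the gene: Mrpl9 as the gene with the largest positive value, Mrpl12 and Mrpl44 for their roles, and Mrpl45, which held 3 matches, with the first shown. In Mrpl12 the letters are read on the opposite strand.
Mrpl9, chr3:94443298-94443327, plus strand: aggcgcagctGCGCATGCGCggggtccttc
Mrpl12, chr11:120484546-120484575, plus strand: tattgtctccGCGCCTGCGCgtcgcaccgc
Mrpl44, chr1:79775973-79776002, plus strand: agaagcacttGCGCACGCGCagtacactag
Mrpl45, chr11:97315586-97315615, plus strand: gaagcctcctGCGCAGGCGCagctggctct

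The ETS letters CCGGAAG were found on either strand in 24 of the 69 promoters (34.8%), in 18% of those of genes tested and in 39.1% of those of cytosolic ribosomal protein genes. The match is shown for Mrpl34, the gene with the highest FPKM, for Mrps12 and Mrpl27, and for the 3 Mrps18 paralogs, all of which held it. In Mrps18b and Mrps18c it is read on the opposite strand.
Mrpl34, chr8:71464878-71464907, plus strand: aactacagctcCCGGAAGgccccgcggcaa
Mrps12, chr7:28741802-28741831, minus strand: aaggaggaaccCCGGAAGgggctggaggta
Mrpl27, chr11:94653725-94653754, plus strand: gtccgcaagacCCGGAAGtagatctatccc
Mrps18a, chr17:46110967-46110996, plus strand: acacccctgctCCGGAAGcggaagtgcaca
Mrps18b, chr17:35916391-35916420, minus strand: tgtcccgagcatgcgcagtcgctCTTCCGG
Mrps18c, chr5:100798592-100798621, plus strand: gggtcacgtgaCTTCCGGcccgggaagcgc

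The YY1 letters, AAGATGGCG followed by a further G, were found in 5 of the 69 promoters (7.25%) and in 2.10% of those of genes tested. Without the last G, a string tried after the longer one had been counted, it was 8 of the 69 (11.6%) and 3.12%. The longer match is shown for Mrps18a, just after its start.
Mrps18a, chr17:46111005-46111034, plus strand: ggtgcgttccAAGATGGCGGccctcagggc
The CCAAT box (CCAAT, 39.1% against 38.8%) and the TATA box (TATAAA, 5.80% against 7.48%) had shares close to those of genes tested. Apart from these YY1 strings, none of the strings contains another. The shares were not matched for base composition, and a match describes letters in the window, not binding. Mrpl9, with the NRF1 letters, and Mrpl44, which also has them, had fold changes of 0.21 and -0.063, and the 3 paralogs with the ETS letters were at -0.037, 0.004 and 0.15.

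The genes lay on 17 chromosomes, with 11 on chromosome 11 and 8 on chromosome 17. Of the 78, 19 (24.4%) had a protein-coding gene starting within 1000 bases on the opposite strand and pointing away, compared with 10.0% of the 13118 protein-coding genes tested. The partners included genes of related function: Mrps12 shares its start region with Sars2, the mitochondrial seryl-tRNA synthetase, at 172 bases, Mrps27 with Ptcd2 at 81 bases, and Mrpl43 with Twnk at 116 bases. Twnk encodes the helicase of mitochondrial DNA replication, and with 63.4, 66.1, 61.7 and 55.6 CPM in controls and 54.3, 51.1, 44.2 and 46.4 CPM in KO mice its groups did not overlap. Its log2 fold change was -0.33 (unadjusted p = 0.0034 and adjusted p = 0.518, edgeR's quasi-likelihood test), whereas no call was made for Mrpl43, 33.4% of whose exon bases lie opposite Twnk exons. Of the other partners, Ppp1r10 beside Mrps18b and Klc4 beside Mrpl2 were higher, at 0.40 (unadjusted p = 0.0036) and 0.28 (unadjusted p = 0.025) in the same test, with no call for either member.

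The proteins around the ribosome were next examined, by the same threshold at which 3.05% of all genes tested were lower and 5.33% higher. The 6 genes listed with the mitochondrial ribosome whose symbols do not follow the rule, such as Dap3 and Oxa1l, had 0 calls in either direction and a median log2 fold change of -0.013. Of 26 tested assembly factors and 20 mitochondrial aminoacyl-tRNA synthetases, 0 were called in either list, with medians of -0.044 and -0.060. Of 15 translation factors, 1 was lower, Guf1, an elongation factor that acts on stalled ribosomes, at -0.17 (unadjusted p = 0.034 and adjusted p = 0.563, edgeR's quasi-likelihood test). Guf1 was no longer called when any 1 of 6 mice was left out, which were all but control replicate 3 and KO replicate 1. Of 10 genes of mitochondrial transcription and DNA maintenance, 1 was lower (Twnk, above), and of 10 nuclear regulators 1 was lower, the growth-promoting transcription factor Myc, at -0.42. Only the unadjusted p was under 0.05 for these genes, and 8.38% of all genes were called in one direction or the other. With the replicate block 1 assembly factor was lower (Mettl17), and 1 nuclear regulator was higher (Esrra) beside the 1 lower (Myc). Of the assembly factors, 3 were lower without KO replicate 1 (Dhx30, Mettl17 and Ngrn), 1 was lower without control replicate 4 (Mrm3) and 1 was higher without control replicate 3 (Trub2). Of the aminoacyl-tRNA synthetases, 1 was lower without control replicate 1 (Vars2) and 1 without KO replicate 1 (Tars2). Of the nuclear regulators, 1 was higher without control replicate 1 (Ppargc1a), control replicate 3 or KO replicate 1 (Esrra both times), and 2 were lower without KO replicate 1 (Myc and Pprc1). In these fits the share of all genes lower was 4.13% with the block, 2.67% and 2.61% without control replicates 1 and 4 and 5.04% without KO replicate 1, and the share higher was 7.14%, 4.06%, 3.9% and 7.94% with the block and without control replicate 1, control replicate 3 and KO replicate 1.

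The rRNAs that the proteins bind had higher means in KO mice. The small-subunit rRNA, mt-Rnr1, had 359, 349, 408 and 657 CPM in controls and 602, 586, 1045 and 959 CPM in KO mice. Control replicate 4 lay within the KO range and the other controls below it. The log2 fold change was 0.85 (SE 0.26, unadjusted p = 0.0090 and adjusted p = 0.518, edgeR's quasi-likelihood test). The large-subunit rRNA, mt-Rnr2, had 475, 490, 530 and 957 CPM in controls and 678, 657, 1198 and 974 CPM in KO mice, with a log2 fold change of 0.52 (unadjusted p = 0.088). With the replicate block its unadjusted p was 0.019 (adjusted p = 0.340), and without control replicate 4 its log2 fold change was 0.81 (unadjusted p = 0.0046 and adjusted p = 0.320). Leaving out any other control gave 0.41 to 0.45, and leaving out a KO mouse gave from 0.33 (without KO replicate 3, unadjusted p = 0.25) to 0.63, none of them under an unadjusted p of 0.05. Between same-numbered mice, log2 CPM was higher in the KO mouse by 0.75, 0.75, 1.36 and 0.55 for mt-Rnr1 and by 0.51, 0.42, 1.18 and 0.026 for mt-Rnr2. The sample titles number the mice but name no pairs. The highest values fell in KO replicates 3 and 4 and, among the controls, in replicate 4, which are also the 3 mice with enterocyte values above 0, and the part of cell composition was not tested. How rRNA was removed from the libraries is not given in the sources used here, so these values describe what remained in each library.

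Of the 13 proteins encoded in mitochondrial DNA, 1 was lower and 0 were higher, beside the same 3.05% and 5.33% of all genes. With the replicate block it was 3 lower and 0 higher, where 4.13% of all genes were lower. The gene called was mt-Nd6, the complex I subunit on the other strand of the genome, with 816, 849, 937 and 1573 CPM in controls and 651, 496, 791 and 678 CPM in KO mice. Control replicate 4 stood far above the other controls. The log2 fold change was -0.67 (unadjusted p = 0.014 and adjusted p = 0.518, edgeR's quasi-likelihood test) and -0.41 without that mouse (unadjusted p = 0.027 and adjusted p = 0.486). The 13 genes had a median of -0.17 and ranged from -0.76 to 0.87. Their median standard error was 0.297, against 0.115 for the mitoribosomal genes, so the widths of the 2 ranges are not comparable.

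The cytosolic ribosomal protein genes were set beside the mitoribosomal ones as a contrast, with no test between the sets. Of the 83 tested cytosolic ribosomal protein genes, 9 were lower in KO mice at an unadjusted p under 0.05 and 0 were higher, beside 0 and 0 of the 76 mitoribosomal genes, with 3.05% and 5.33% of all genes tested called in each direction. Their median log2 fold change was -0.13, with 74 of 83 (89.2%) below 0, whereas 57.9% of the mitoribosomal genes were below 0. In 2 of the 83, Rpl7a and Rpl39 (-0.38 and -0.26), the KO mice lay entirely below the controls, as in 1.87% of all genes tested, and Rps28 and Rps29 were at -0.40 and -0.41. No gene of either set passed after adjustment. The count of cytosolic genes depended on single mice: it was 44 lower without KO replicate 1, where 5.04% of all genes were lower. It was 3 without control replicate 3 (2.37% of all genes) and 5 without KO replicate 4 (2.47%). It was 4 without control replicate 4, KO replicate 2 or KO replicate 3 (2.61%, 2.21% and 2.17%). With the replicate block it was 11 (4.13%). The groups of genes are not independent replicates, so the medians are given as a description.

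By mouse, the cytosolic genes had median deviations of 0.085, 0.15, 0.039 and -0.019 in controls and 0.16, -0.14, -0.15 and -0.13 in KO mice. KO replicate 1 stood with the controls, and without it the cytosolic median log2 fold change was -0.21 and the mitoribosomal one -0.091. The mitoribosomal median deviation minus the cytosolic one was -0.18, 0.037, -0.0025 and -0.068 in controls and 0.031, 0.22, 0.024 and -0.030 in KO mice. The lowest mouse by this measure was control replicate 1 and the highest KO replicate 2, and the other 6 mice overlapped between genotypes. Between same-numbered mice, the KO mouse was the higher one in all 4 pairs, by 0.21, 0.19, 0.027 and 0.038. The sample titles number the mice but name no pairs, and these differences were not tested.

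**Figure D5:**
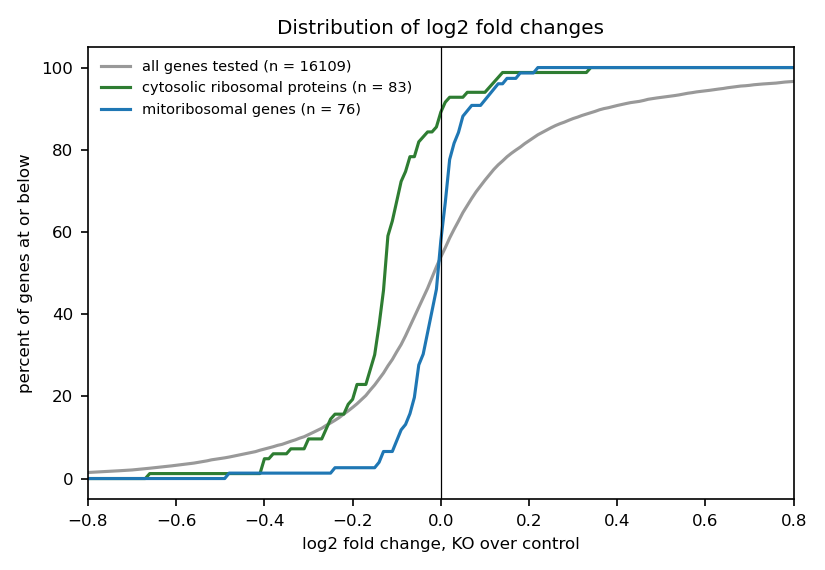
Percent of genes at or below each log2 fold change of KO over control, for the 76 mitoribosomal genes, the 83 cytosolic ribosomal protein genes and all 16109 genes tested, drawn from -0.8 to 0.8. The mitoribosomal curve is steep and crosses 50% at about the same place as that of all genes (medians of -0.008 and -0.016), while the cytosolic curve is shifted to the left (median -0.13).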

How the data were processed

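RNA of intestinal crypts from 4 KO and 4 control mice was sequenced. Per the labels, the submitters' processing notes name CASAVA, HISAT2 2.0.5 and featureCounts 1.5.0-p3, and the gene coordinates are those of GRCm38. The deposited counts are whole reads assigned to each gene by the authors, not normalized. The authors also deposited FPKM, which divides these counts by gene length and library size, and which was used here for levels between genes. The deposited log2 fold changes, p-values and adjusted p-values of the authors' own comparison, and their list of differential genes, were not used.

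Counts were analysed with edgeR 4.0.16 in R 4.3.3: filterByExpr with a minimum count of 10, TMM factors, and the quasi-likelihood test with genotype as the only term over all 8 mice. Adjustment was by Benjamini-Hochberg over the 16109 genes tested. CPM are TMM-scaled. Values after ± are SDs over mice. The test was checked on simulated counts. Groups were called non-overlapping where the ranges of the 4 KO mice and the 4 controls in CPM were apart. Alternatives were DESeq2 1.42.0, RLE and upper-quartile factors, no filter, 10 counts in every mouse, the Xist/Y group as covariate, a replicate block, limma 3.58.1 on log2(FPKM + 1) and log2(FPKM + 0.1) for genes with a mean FPKM of at least 1, and leaving out each mouse. Contrasts within the Xist and Y groups were added after the data were seen.

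Same-numbered mice deviated together from their group means (correlations 0.129, 0.501, 0.141 and 0.294 over all genes), and a blocked fit on that number was therefore run beside the main test, which did not use it. Its values are given where they change a call. The correlations hold the Xist and Y genes, and over autosomal genes they were 0.0904 to 0.474. The sample titles name no pairs, and differently numbered mice were not correlated. No libraries were duplicates.

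The set of genes and all lists were chosen with earlier results of these data known. Genes were named if they had an unadjusted p under 0.05 or groups that did not overlap, if they were among the 5 largest fold changes in each direction or the 5 highest or 3 lowest in FPKM, if they were not tested, or for their role (Mrps18 paralogs, Mrps36, Mrps12, Mrpl12, Mrpl44 and Mrpl45). From other lists at most 4 genes with an unadjusted p under 0.05 were named, beside mt-Rnr1, mt-Rnr2 and Mex3a. Mrps9, Mrpl22, Mrpl39, Mrpl43, Mrpl54 the neighbouring or overlapping genes, and genes of other lists called only under an alternative were named after their values were seen. Exon overlaps were taken from GENCODE M21 and promoters from RefSeq.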

Additional observations from a re-analysis of the deposited data

Results flagged for a closer look

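In each group of 4 mice, the gap between the most distant mouse and its nearest neighbour was divided by the range of the group (Dixon's ratio). Of 56 groups examined, 4 exceeded the 95% critical value for 4 samples, where chance gives about 2.8. For Mrps6, control replicate 2 had 20.6 CPM and the other controls 13.5 to 14.1 (ratio 0.914). For Mrps36, control replicate 1 had 27.0 CPM and the others 29.2 to 29.6 (ratio 0.870). For mt-Rnr2, control replicate 4 had 957 CPM and the others 475 to 530 (ratio 0.885). The median deviation of the cytosolic ribosomal protein genes in KO replicate 1 was 0.16, and in the other KO mice -0.15 to -0.13 (ratio 0.931). The causes were not tested.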

How the results depend on the processing

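The mitoribosomal genes gave no adjusted call in any of the 17 alternatives, the lowest adjusted p being 0.306 (Mrps9 without KO replicate 1). The number higher at an unadjusted p under 0.05 was 1 with RLE factors and 1 in each limma fit on FPKM (Mrps34 each time), and 2 with the Xist/Y group as covariate (Mrpl9 and Mrps34). With the replicate block, which pairs same-numbered mice, it was 1 (Mrpl9) and the log2 fold change of Mrps36 was -0.0028. The block changed no other call of these genes. In these fits 2.89% to 4.13% of all genes were lower and 5.38% to 7.26% higher at that threshold. Leaving out 1 mouse gave 0 to 2 higher genes and 0 to 3 lower genes, the 2 higher (2.63%) without control replicate 2, where 4.38% of all genes were higher, and the 3 lower (3.95%) without KO replicate 1, where 5.04% of all genes were lower. Within the 4 mice with Xist, a contrast added after the data were seen, 2 were lower. The median log2 fold change of the mitoribosomal genes lay between -0.091 (without KO replicate 1) and 0.052 (without control replicate 2), and that of the cytosolic genes between -0.21 and -0.094. Over all genes, 93 passed adjustment in DESeq2, 4 with the Xist/Y covariate, 2 without the filter, 0 with 10 counts in every mouse, 0 with the replicate block, 0 in limma with a pseudocount of 0.1, and 0 to 4 when 1 mouse was left out. The causes were not tested.

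Of 374 fold changes of the 22 named tested genes over the alternatives, 320 kept their direction and side of the threshold, 11 moved past an unadjusted p of 0.05 in the same direction, and 43 changed sign, 40 of these on leaving out 1 mouse. With upper-quartile factors Mrps36 was at -0.0097 and Mrps18b at -0.011. Among the genes that changed sign when a mouse was left out, the ranges were -0.037 to 0.16 for Mrpl34, -0.11 to 0.047 for Mrpl12, -0.059 to 0.16 for Mrps21, -0.046 to 0.053 for Mrpl2, -0.089 to 0.15 for Mrps12, -0.13 to 0.00020 for Mrpl44, -0.062 to 0.088 for Mrps36, -0.090 to 0.050 for Mrpl45, -0.036 to 0.044 for Mrps18b, -0.13 to 0.061 for Mrps18a, -0.12 to 0.079 for Mrps30, -0.073 to 0.057 for Mrpl33 and -0.80 to 0.050 for Mrps23. With 4 mice per genotype an exact permutation test of a single gene cannot go below 0.0286, and the lowest of these genes was 0.0571 (Mrps34). Mrps23 had 23 to 187 counts per mouse and the widest interval.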
